A study of Caenorhabditis elegans with 18 samples.

Results

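The core histone genes of Caenorhabditis elegans encode the H2A, H2B, H3 and H4 proteins around which DNA is wound in the nucleosome. The members were the genes named his with a number in the deposited probe set mapping, other than the linker histone gene his-24, that had a probe set mapped to one gene only. Where a gene had more than 1 such probe set, the one with the highest mean over the 18 conditions was kept. This gave 47 genes of 17603 genes with a unique probe set: 9 of H2A, 11 of H2B, 15 of H3 and 12 of H4. The current RefSeq gene table of assembly WBcel235 lists 71 his genes other than his-24, and all 47 members were found in it by symbol.

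Most histone genes of animals are transcribed in S phase, when a cell needs new nucleosomes for its copied DNA, and in C. elegans many of them lie next to each other in small groups of the 4 types. Their messages generally end in a stem-loop bound by the protein CDL-1 in place of a poly(A) tail. Replacement histones such as the H3.3-type proteins HIS-71 and HIS-72 are deposited outside replication too, and their messages are not tied to S phase. A newly hatched larva that finds no food stops its development in the first larval stage, L1, without dividing its blast cells, whereas a fed larva divides them and moults.

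The study followed larvae of the laboratory wild-type strain N2 after hatching, with food (E. coli HB101 at 25 mg/ml) or without it, on whole-genome Affymetrix arrays. Fed and starved larvae were taken at 0, 1, 3, 6, 12, 15 and 24 h, where 0 h is the time at which 50% of the animals had hatched within a window of 2.5 h. The labels stage the fed larvae as L1 up to 12 h, as L1-L2 at 15 h and as L2 at 24 h, whereas the starved larvae stay L1, so that the fed against starved differences at 15 and 24 h also compare stages. These series were kept in S-complete medium at 20 °C in cultures of 10 ml with 10000 larvae. Late embryos, 2 h short of hatching, and larvae held without food in M9 for 3 h were taken as well. In 2 food switches, larvae received food for 3 h after 12 h of starvation, or lost it for 3 h after 12 h of feeding. Each of the 18 conditions was a mean of 3 arrays in the deposited tables, so that a condition counts as 1 sample here, and the error beside a mean is the authors' deposited error of that mean. Whole animals were measured, so that fewer cells of a type and less RNA per cell cannot be told apart.

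The values are normalised array intensities on a linear scale with a floor of 5, and differences are given as log2 of the ratio of condition means. A probe set was counted as detected where the deposited detection p was under 1e-10. By this measure 38 members were detected in all 18 conditions and 4 members (his-54, his-67, his-69 and his-70) in 0 of them. The members' median error was between 6.77% and 11.15% of the mean by condition. The number of arrays limits this precision.

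Probe sets of histone genes are hard to keep apart, because copies of a type are nearly identical. The platform annotation paired 24 members' probe sets with 1 gene and the other 23 with several, up to 14 genes for his-13. The probe set of his-54 is paired there with 3 genes that carry sequence names only. In 4 pairs of members (his-5 with his-18, his-8 with his-20, his-55 with his-63, his-48 with his-58) both probe sets had the same list of genes. The values of such members are therefore uncertain as values of 1 gene. The labels name a T7-based mRNA amplification kit that started from 100 ng of total RNA and do not give its primer, so how well messages without a poly(A) tail were copied is not known.

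The 21 arrays of the fed series and the 21 arrays of the series starved in S-complete were hybridised on 3 days each, with 0 days in common, so that food and day cannot be told apart in differences between these series. The embryo arrays shared the starved arrays' days, the M9 arrays shared the fed arrays' days, and both food switches lay together on 1 further day. Differences of a switch from the fed or starved series, of embryos from fed larvae, and of M9 from S-complete larvae thus also compare days. Steps in time within fed or within starved larvae, and the comparison of both switches with each other, were made between arrays that shared their days.

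Over the 7 times, H2A and H2B genes were higher in fed larvae, H3 genes hardly differed, and H4 genes lay between them. In limma's fit of fed minus starved with time as a factor, 21 of the 47 members passed an adjusted p of 0.05 (Benjamini-Hochberg over 22548 worm probe sets), 19 of them higher in fed larvae and 2 lower. Among all worm probe sets 30.3% passed, 13.5% higher and 16.8% lower. The members' median difference was 0.32, while that of all probe sets was 0. By type, 8 of 9 H2A, 9 of 11 H2B, 0 of 15 H3 and 2 of 12 H4 genes were called higher in fed larvae. Among the 24 members whose probe set is paired with 1 gene, 6 were higher and 2 lower, with a median of 0.13. These 24 were 4 H2A, 4 H2B, 10 H3 and 6 H4 genes, so that H3 had a larger share of them than of all members. The 6 higher ones were his-3, his-61 and his-68 of H2A and his-4, his-39 and his-62 of H2B. Without time as a factor 8 members were called higher and 2 lower, beside 12.9% and 15.1% of all worm probe sets, so that the members' total of 10 of 47 lies below the 28% of all probe sets in that fit.

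**Figure D1:**
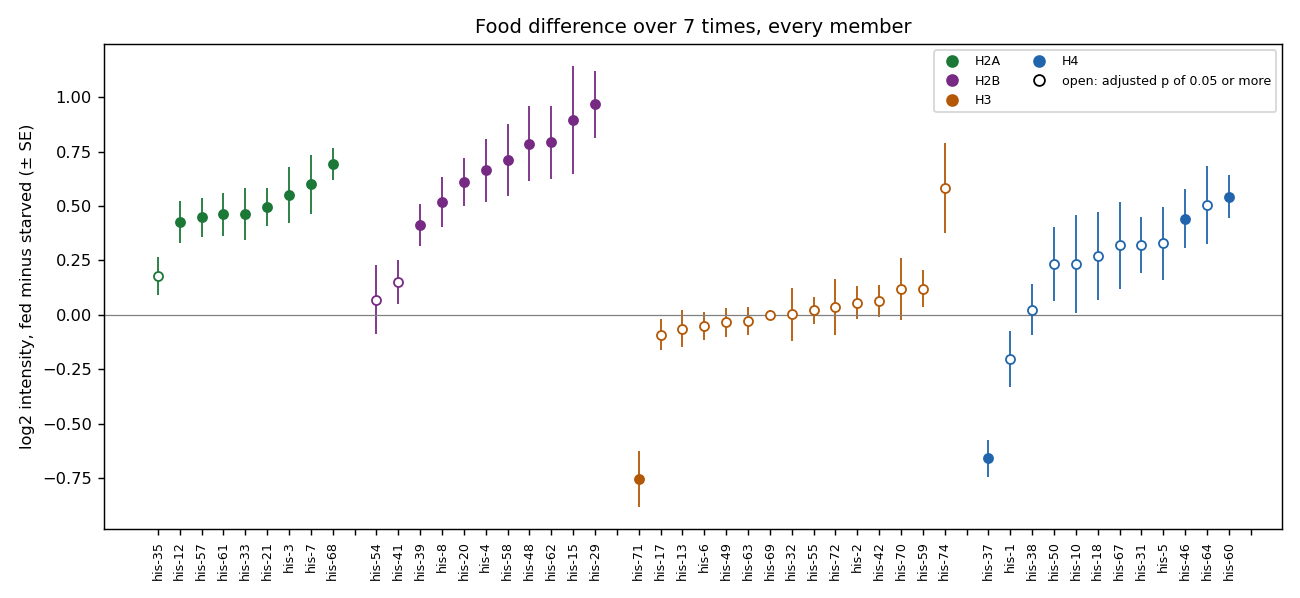
Fed minus starved difference of log2 intensity over 7 times for each of the 47 core histone genes, ordered within each type; points are limma estimates, bars are their SE, and filled points passed an adjusted p of 0.05. H2A and H2B genes sit mostly between 0.4 and 1, 13 of the 15 H3 genes lie within 0.12 of 0, and his-71 and his-37 stand below 0.

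Among the H2A genes, which encode a partner of H2B in the nucleosome's dimers, differences ran from 0.18 for his-35 to 0.69 for his-68, with a median of 0.46. The intensity of his-68 was 81.9 to 151 in fed larvae, with a median of 112, and 49.8 to 97.0 in starved larvae, with a median of 77.2. It was higher in fed larvae at 7 of 7 times, although the ranges overlapped, and it was detected in 15 of 18 conditions. Its difference was 0.69 ± 0.07 (SE; limma adjusted p = 0.0018). The lone H2A gene that did not pass, his-35, is also the H2A member of highest mean, and its probe set is paired with 1 gene. Its intensity was 530 to 720 in fed larvae, with a median of 651, and 443 to 684 in starved larvae, with a median of 542. Fed larvae had the higher value of his-35 at 6 of 7 times, and the difference of 0.18 ± 0.09 (SE) had a limma adjusted p of 0.18.

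H2B genes held the highest food differences of any type, with a median of 0.66. His-29 had the highest, 0.97 ± 0.15 (SE; limma adjusted p = 0.0060), and was higher with food at 7 of 7 times. Its fed mean was 37.7 ± 8.4 (authors' error) at 0 h, 131 ± 13.9 at 15 h and 104.3 ± 10.2 at 24 h. In starved larvae it was 23.3 ± 6.0 at 0 h and 47.4 ± 6.8 at 24 h. Fed larvae thus had the higher mean at both ends and the larger gap at 15 h. His-29 was detected in 10 of 18 conditions, and its probe set is paired with 2 genes. His-41, the H2B member of highest mean, took another course, with fed intensities of 558 to 831 that peaked at 6 h and starved intensities of 529 to 729. The 2 ranges overlapped almost fully, and its difference of 0.15 ± 0.10 (SE) did not pass (limma adjusted p = 0.30). The lowest H2B difference, 0.07 ± 0.16 (SE), was that of his-54, which was detected in no condition.

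H4 genes had a median difference of 0.29 and the widest range apart from H3, from -0.66 for his-37 to 0.54 for his-60. For his-60 fed larvae had intensities of 55.7 to 99.7 and starved larvae 40.4 to 80.2, with fed larvae higher at 7 of 7 times (0.54 ± 0.10 SE; limma adjusted p = 0.0092). The probe set of his-60 is paired with 4 genes. His-46 was the other H4 gene called higher in fed larvae, with a limma adjusted p of 0.048. Its probe set is paired with 3 genes, all among the 4 of his-60, so these calls may share signal. His-64, 1 of those 3 genes, has a probe set paired with it alone. Its difference of 0.50 ± 0.18 (SE) did not pass (limma adjusted p = 0.076). At the other end, his-37 was lower with food at 7 of 7 times (-0.66 ± 0.09 SE; limma adjusted p = 0.0032). Its starved intensity was 1043 ± 61.4 (authors' error) at 0 h, 1644 ± 90.8 at 3 h and 1862 ± 101 at 24 h, while its fed intensity stayed between 844 and 1197. His-37 was thus the 1 H4 gene of 12 called lower, and its probe set is paired with no other gene. His-1, whose probe set is also paired with 1 gene, was lower with food at 6 of 7 times. Its difference of -0.20 ± 0.13 (SE) did not pass (limma adjusted p = 0.28). His-38, an H4 gene that lies outside the clusters, had fed intensities of 80.4 to 177 and starved intensities of 83.9 to 114, and its difference of 0.02 ± 0.12 (SE) did not pass (limma adjusted p = 0.93).

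The 10 H3 genes that are not of the H3.3 type had differences between -0.09 and 0.12, with a median of -0.01, and 0 of them passed. Their means varied over time all the same, with a ratio of the highest to the lowest mean of 1.31 (his-49) to 1.73 (his-13) in fed larvae and of 1.16 (his-17) to 1.72 (his-13) in starved larvae. Of the 5 H3.3-type genes, only his-71 passed. His-71 intensity was 191 to 249 in fed larvae, with a median of 208, and 281 to 419 in starved larvae, with a median of 381. The 2 ranges did not overlap, and the difference was -0.75 ± 0.13 (SE; limma adjusted p = 0.0074). From 0 to 24 h its mean went from 249 to 191 in fed larvae and from 281 to 419 in starved larvae, and the difference from -0.17 to -1.14. His-72, the other widely used H3.3 gene and the H3 member of highest mean, differed by only 0.04 ± 0.13 (SE; limma adjusted p = 0.89). His-74 had a difference of 0.58 ± 0.21 (SE) that did not pass (limma adjusted p = 0.075), with intensities of 52.4 to 118 in fed and 39.1 to 90.9 in starved larvae. His-70 was listed between 5 and 8.67, and his-69 was listed at the floor of 5 in every condition.

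The food difference was not constant, and 15 h stood out for H2A, H2B and H4. The members' median difference was 0.18 at 0 h, 0.21 at 1 h, 0.16 at 3 h, 0.23 at 6 h, 0.39 at 12 h, 0.95 at 15 h and 0.18 at 24 h, against 0 for all probe sets. By the sampling times both series had 0 h with food at 0 h. The median there was nonetheless about as large as at 1, 3, 6 and 24 h. Fed and starved arrays shared no hybridisation day, and the cause of this early difference was not tested. At 15 h the median was 0.97 for H2A, 1.49 for H2B, 1.09 for H4 and 0.16 for H3. In the authors' deposited table of 2-factor analyses of variance, the food by time term passed after adjustment for 37 of the 46 members with a value and for 54.7% of the 22040 worm probe sets with one. A straight slope of the food difference on log2 time passed limma's adjusted threshold for 0 of 47 members (8 at an unadjusted p under 0.05) and for 5.38% of all probe sets.

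**Figure D2:**
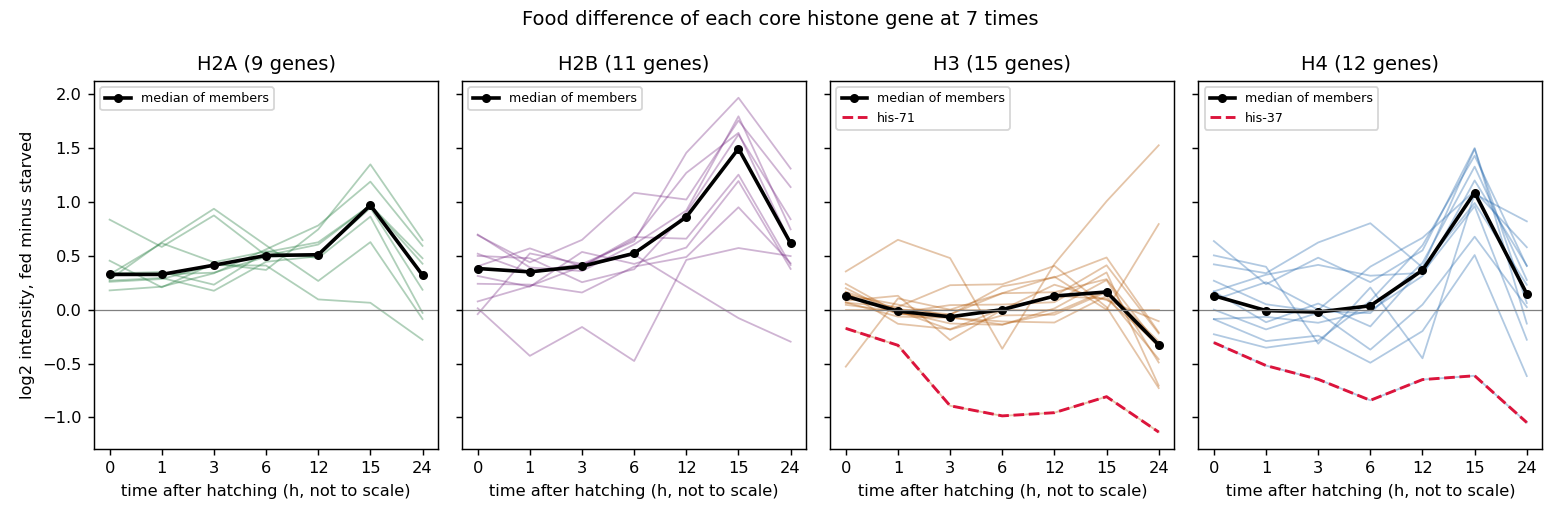
Fed minus starved difference of log2 intensity at each of 7 times, one thin line per gene and a black line for the median of each type; the time axis is not to scale. The medians of H2A, H2B and H4 peak at 15 h at 0.97, 1.49 and 1.09, the H3 median stays between -0.33 and 0.16, and his-71 and his-37 (dashed) lie below 0 at every time.

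At single times few members passed. With the authors' deposited p for each pair, adjusted over all probe sets, 0 members passed at 0 and 1 h, 1 at 3 h, 1 at 6 h, 3 at 12 h, 3 at 15 h and 7 at 24 h. The shares of all worm probe sets that passed were 0% at 0 h, 0.00443% at 1 h, 1.03% at 3 h, 1.56% at 6 h, 9.89% at 12 h, 4.69% at 15 h and 7.78% at 24 h. These member counts are close to the background apart from 24 h, and there the deposited errors gave 3 of 47, beside 10.4% of all probe sets. The early calls were his-41, higher with food at 3 h by 0.40, and his-37, lower at 6 h by a log2 difference of -0.84. At 12 h his-62 was higher (1.27), and his-71 (-0.96) and his-37 (-0.65) were lower. Genes outside the naming rule appear here and below because the counts are small, and they were chosen after their values were seen.

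At 15 h the 3 called members were his-15, his-62 and his-60. Intensity of his-15, an H2B gene, was 102 ± 10.5 (authors' error) in fed and 26.2 ± 6.0 in starved larvae, a difference of 1.97 ± 0.36 (combined error; adjusted from the authors' deposited p, 0.034). His-62, another H2B gene and one whose probe set is paired with 1 gene, stood at 184 ± 13.5 against 58.9 ± 7.1, a difference of 1.64 ± 0.20 (adjusted from the authors' deposited p, 0.036). For his-60 the means were 99.7 ± 7.7 and 50.2 ± 5.8, a difference of 0.99 ± 0.20 (adjusted from the authors' deposited p, 0.047). With the deposited errors 2 members passed at 15 h, beside 2.76% of all probe sets: his-62 (adjusted p = 0.049) and his-58 (1.62, adjusted p = 0.049), while his-15 (adjusted p = 0.059) and his-60 (adjusted p = 0.077) did not. At an unadjusted deposited p under 0.05, 25 of 47 members were higher in fed larvae at 15 h, beside 11.4% of all probe sets. They were 5 of 9 H2A, 9 of 11 H2B, 2 of 15 H3 and 9 of 12 H4 genes.

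By 24 h the types had parted. H2B genes kept a median of 0.62 and H2A genes one of 0.32, H4 genes were at 0.15, and H3 genes were at -0.33. All 10 H3 genes not of the H3.3 type had a lower mean in fed than in starved larvae. The called members that were higher were his-48 (0.74) and his-58 (0.84), 2 H2B genes whose probe sets share a gene list. Lower were 5 H3 genes: his-13 (-0.49), his-32 (-0.70), his-42 (-0.22), his-49 (-0.33) and his-71 (-1.14). With the deposited errors only his-71 of these passed (adjusted p = 0.032). By that method 0 members were higher and 3 lower. At an unadjusted deposited p under 0.05, 10 members were higher and 9 lower, of which 8 were H3 genes, beside 12.7% and 14.7% of all probe sets. His-72 fell in this group too by size, with 1108 ± 65.9 (authors' error) in fed and 1835 ± 102 in starved larvae, a difference of -0.73 ± 0.12 (combined error) that did not pass after adjustment of the authors' deposited p (0.14). Its deposited errors alone gave an adjusted p of 0.045.

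Within fed larvae, 38 of 47 members had their highest mean at 15 h, as did 2454 of 22548 worm probe sets (10.9%). These were 15 of the 24 members whose probe set is paired with 1 gene and 23 of the 23 paired with several. By type the 38 were 8 of 9 H2A, 10 of 11 H2B, 10 of 15 H3 and 10 of 12 H4 genes. The 10 H3 genes were all 10 that are not of the H3.3 type. His-35 and his-41, which are neighbours in the genome, peaked at 6 h, and his-72 and his-37 at 12 h. From 12 to 15 h the members' median difference was 0.41, with 0.65 for H2B, 0.68 for H4, 0.40 for H2A and 0.17 for H3. None of the 47 passed after adjustment of the authors' deposited p (0.00887% of all probe sets did), and 0 passed with the deposited errors. At an unadjusted p under 0.05, 23 were higher at 15 h, beside 6.23% of all probe sets. From 15 to 24 h the median was -0.39, 43 of 47 members had a lower mean at 24 h, and 0 passed after adjustment by either method (0% of all probe sets). At an unadjusted p under 0.05, 19 were lower, beside 6.29% of all probe sets.

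The 15 h peak lay between 2 maxima of the moult genes. The summed intensity of 6 moult markers, among them mlt-10 and nas-37, was 5455 at 12 h, 891 at 15 h and 3430 at 24 h in fed larvae, and 75.0 to 299 in starved larvae. The summed level of 10 germ line markers was 296 to 961 in fed and 200 to 468 in starved larvae, with 1 to 7 of them detected in fed and 1 to 3 in starved larvae. Neuron markers ran the other way, at 2645 to 4397 in fed and 4339 to 6158 in starved larvae. Muscle markers summed to 11447 to 19284 with food and 13792 to 21012 without it, intestine markers to 12025 to 16635 and 7615 to 16965, and epidermis markers to 629 to 2381 and 686 to 930. The part of a changed share of cells, or of developmental stage, in the histone differences was not tested.

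Starved larvae, which do not divide, nevertheless had higher histone means late in the arrest. In starved larvae 37 of 47 members had their highest mean at 24 h, as did 4434 of 22548 worm probe sets (19.7%). From 0 to 24 h without food the members' median difference was 0.63, with 0.70 for H2A, 0.81 for H2B, 0.71 for H4 and 0.38 for H3, and 42 of 47 were above 0. With the deposited errors 0 of the 47 passed after adjustment, beside 3.32% of all probe sets, and 30 had an unadjusted p under 0.05, beside 21.6%. By the authors' deposited p 0 passed after adjustment in any single step of the starved series. For comparison, from 0 to 15 h with food the median was 0.97, 42 of 47 members were above 0, and 0 members and 0% of all probe sets passed, with 31 members at an unadjusted p under 0.05, beside 16.9% of all probe sets. The 2 H3 genes with lower means at 24 than at 0 h of starvation were his-74, from 90.9 ± 24.4 (authors' error) at 0 h to 40.9 ± 10.4 at 24 h, and his-70, which was not detected.

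**Figure D3:**
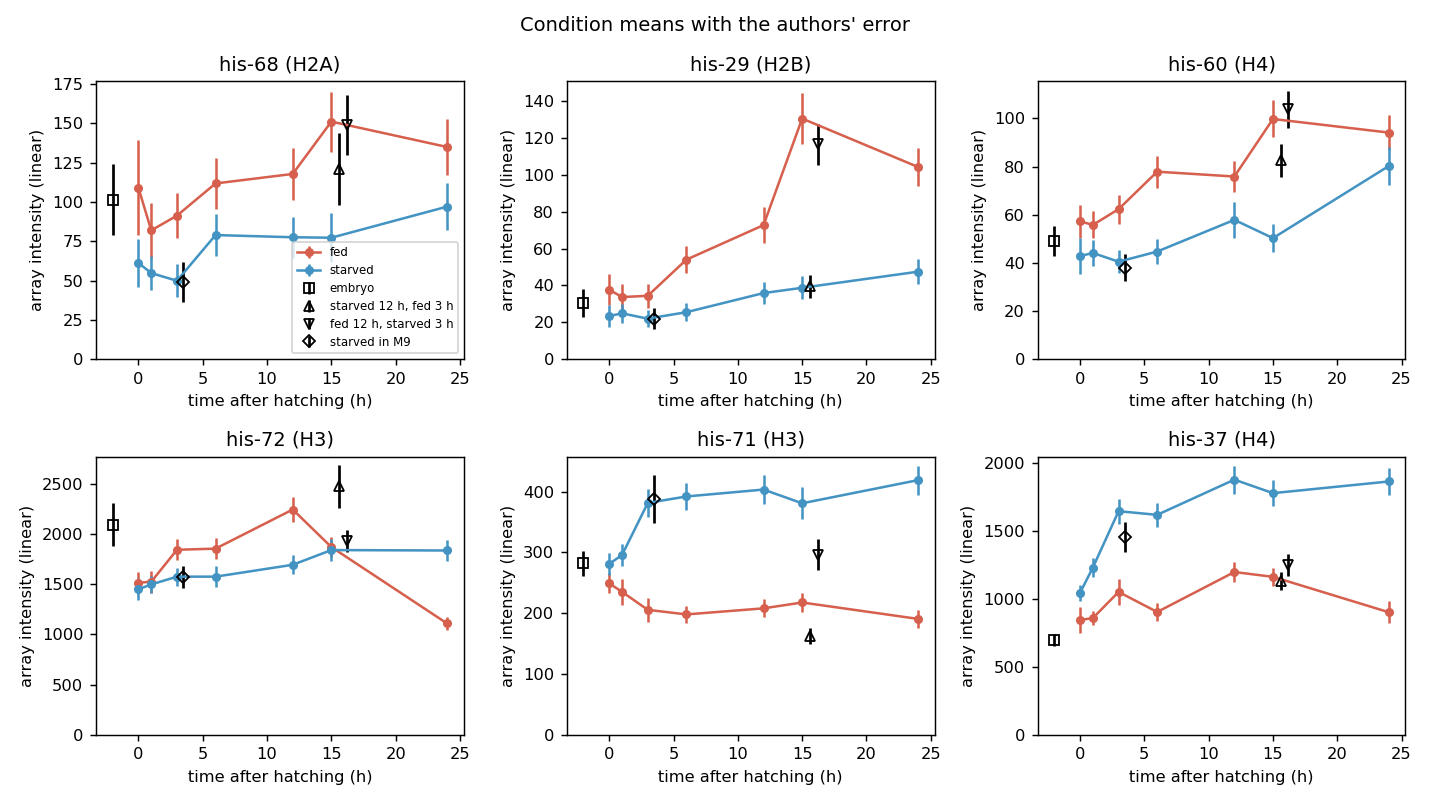
Mean array intensity with the authors' error against time for 6 named members, in fed (red) and starved (blue) larvae, with the embryo, the M9 larvae and the food switches as open black symbols, the switches drawn just right of 15 h and M9 just right of 3 h. His-68, his-29 and his-60 are highest at 15 h in fed larvae, his-72 falls to 1108 at 24 h, and his-71 and his-37 are higher in starved larvae throughout.

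When starved larvae were given food for 3 h, the H3.3-type gene his-71 fell, and the medians of the 4 types stayed within 0.23 of 0. Compared with larvae starved for 12 h, measured on other days, the median difference of all members was 0.09. By type it was 0.09 for H2A, 0.23 for H2B, 0 for H3 and 0.06 for H4. The 1 called member was his-71, which fell from 403 ± 23.2 (authors' error) to 163 ± 12.7, a difference of -1.31 ± 0.14 (combined error; adjusted from the authors' deposited p, 0.026), where 3.21% of all probe sets passed. Against larvae starved for 15 h it was again the 1 called member, at -1.23 ± 0.15 (adjusted from the authors' deposited p, 0.041), where 2.04% of all probe sets passed. The refed mean of his-71 was below each of the 7 fed means. His-37 stood at 1129 ± 65.6 after 3 h of food and at 1876 ± 102 before it, a difference of -0.73 ± 0.11 that missed the threshold (adjusted from the authors' deposited p, 0.062). His-72 and his-74 had higher means after refeeding, at 2473 ± 214 against 1693 ± 95.1 and 131 ± 29.3 against 42.9 ± 10.6, and neither passed (adjusted from the authors' deposited p, 0.12 and 0.47).

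After food removal for 3 h following 12 h of feeding, the histone means were near those of larvae that kept their food, measured on other days. The members' median difference was 0.40 against larvae at 12 h of food and 0 against larvae at 15 h of food. For his-29 the mean was 116 ± 10.9 (authors' error) after food removal, 131 ± 13.9 with food kept on to 15 h, and 72.7 ± 9.8 at 12 h. For the H4 gene his-38 these means were 182 ± 13.7, 177 ± 18.2 and 103 ± 9.8. In both genes the 2 later means lay above the 12 h mean. Against 12 h of food, 0 members passed after adjustment of the authors' deposited p (0.0266% of all probe sets) and 19 were higher at an unadjusted p under 0.05, beside 7.9% of all probe sets. Against 15 h of food, 0 passed (0.00443% of all probe sets), and only his-10, an H4 gene, had an unadjusted p under 0.05, beside 9.7% of all probe sets. His-10 was at 285 ± 17.7 after food removal and at 218 ± 17.8 with food.

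Both switches were hybridised on the same day and can be set against each other. The members' median log2 difference, larvae starved and then fed minus larvae fed and then starved, was -0.72. By type the median was -0.66 for H2A, -1.08 for H2B, -1.08 for H4 and -0.32 for H3. With the deposited errors 7 of 47 members were lower after adjustment and 0 higher, beside 4.48% of all probe sets in either direction. These were 2 H2A genes (his-3 and his-7), 2 H2B genes (his-15 and his-62) and 3 H4 genes (his-5, his-10 and his-50). His-10 was at 62.2 ± 9.3 (authors' error) in larvae fed for the last 3 h and at 285 ± 17.7 in larvae starved for the last 3 h, a difference of -2.19 ± 0.23. His-15 was at 22.7 ± 3.9 and 97.0 ± 8.0, a difference of -2.098 ± 0.28, and was detected in 1 of these 2 conditions. Thus these H2A, H2B and H4 genes were higher in the larvae that had eaten for 12 h than in those that were eating when taken.

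Genes of DNA synthesis were compared as a list. Of 31 listed genes of replication, such as the MCM helicase, the GINS complex and ribonucleotide reductase, 30 had a probe set. They had the opposite order between the switches, with a median of 1.00 for larvae starved and then fed minus larvae fed and then starved, 30 of 30 above 0 and 2 called higher with the deposited errors. Over the 7 times 5 were higher with food and 0 lower in limma's fit, with a median of 0.24, and the share higher is close to the 13.5% of all probe sets. The named ones were psf-1 and psf-2 of the GINS complex, detected in 10 and 5 of 18 conditions, at 0.89 ± 0.20 and 1.02 ± 0.20 (SE; limma adjusted p = 0.017 and 0.011), while pcn-1, the sliding clamp, and rnr-1, ribonucleotide reductase, had 0.32 and 0.06 and did not pass. From 12 to 15 h with food their median was -0.42 and 28 of 30 had a lower mean at 15 h, whereas 41 of 47 histone genes had a higher one. After 3 h of refeeding their median was 0.81 and 30 of 30 had a higher mean (1 called), against 0.09 and 32 of 47 for the histones. After 3 h without food, against 12 h of food, the DNA synthesis median was -0.35 (0 called) where the histones had 0.40. The steps from 12 to 15 h with food kept were about as large, at -0.42 and 0.41. None of these list medians was tested. The 30 genes include cdt-1, cdk-2 and cye-1, which were detected in 0 of 18 conditions.

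**Figure D4:**
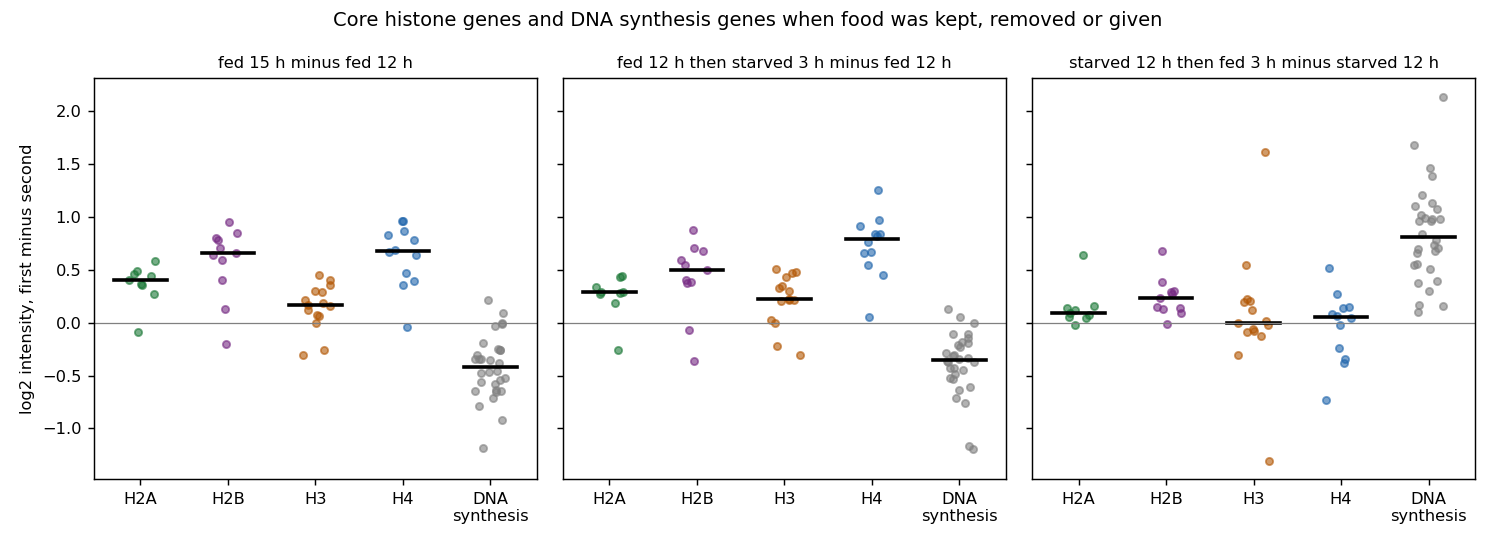
Change of log2 intensity for each core histone gene by type and for 30 DNA synthesis genes. Left is from 12 to 15 h of food. The middle is from 12 h of food to 3 h after its removal. Right is from 12 h of starvation to 3 h of refeeding. Bars are medians. In the left and middle panels the histone medians lie above 0 and the DNA synthesis medians at -0.42 and -0.35, and on the right the DNA synthesis median of 0.81 lies above every histone type.

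Around hatching, H2A genes had lower means in starved larvae at 0 h than in embryos 2 h before hatching, in 9 of 9 genes and with a median of -0.57. H2B and H3 genes had medians of -0.17 and -0.20, and H4 genes had 0.17. The 1 called member was his-35, which fell from 673 ± 30.8 (authors' error) to 443 ± 22.4, a difference of -0.60 ± 0.10 (adjusted from the authors' deposited p, 0.044), where 2.4% of all probe sets passed. His-37 was at 699 ± 44.3 in embryos and at 1043 ± 61.4 in starved larvae at 0 h, which did not pass (adjusted from the authors' deposited p, 0.075). Between embryos and fed larvae at 0 h the members' median difference was 0.01, and 0 members and 0% of all probe sets passed after adjustment of the authors' deposited p (3 members at an unadjusted p under 0.05) or with the deposited errors.

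The medium of starvation made no detectable difference to the histone genes. Between M9 and S-complete at 3 h the members' median difference was 0, and 0 members and 0% of all probe sets passed after adjustment of the authors' deposited p (1 member at an unadjusted p under 0.05) or with the deposited errors. Because M9 and fed arrays shared their hybridisation days, fed larvae at 3 h were also set against the M9 larvae. There the median was 0.17, with 0.30 for H2A, 0.39 for H2B, 0.01 for H3 and 0.01 for H4. With S-complete in place of M9 the medians were 0.41, 0.40, -0.07 and -0.02, so the order of H2A and H2B above H3 and H4 was present in both. With the deposited errors 0 members and 0% of all probe sets passed against M9 (4 members at an unadjusted p under 0.05).

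The types also differed in how alike their members' courses were. Over the 18 conditions, among members detected in all of them, the median Pearson correlation of log2 intensity was 0.93 between pairs of H2A genes, 0.94 between H2B genes, 0.84 between H4 genes and 0.74 between H3 genes. Between types it was 0.92 for H2A with H2B, 0.89 for H2B with H4 and 0.55 for H2B with H3. His-71 had a median of -0.26 with the other 37 members and his-37 one of 0.06. These are descriptions over conditions that share arrays' days, and probe sets that bind copies of the same gene would correlate for that reason as well.

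Where an H3 gene lay beside a core histone gene of another type, their probe sets did not have the same food difference. There were 21 pairs of members that were neighbours in the RefSeq gene list, and in 11 of them a member of H3 lay beside a member of another type. At 15 h the neighbour's difference was the higher one in 11 of 11 pairs, and over the 7 times in 10 of 11. The lower differences of H3 as a type would give high counts among pairs that are not neighbours too, and such pairs were not counted. His-2, his-6 and his-32 recur among the pairs, so the pairs are not separate. For his-17 and the H4 gene his-18 the 15 h differences were 0.13 and 1.49. For his-63 and the H4 gene his-64 they were 0.18 and 1.50. The probe sets of his-17, his-18, his-63 and his-64 are paired with 3, 4, 3 and 1 genes. Those paired with several are uncertain as values of 1 gene. In the group of his-1, his-2, his-3 and his-4 they were 0.51 for the H4 gene, 0.28 for H3, 1.19 for H2A and 1.49 for H2B. Each of these 4 genes has a probe set paired with it alone. The 5 pairs of an H2A and an H2B neighbour ranged from like values, as in his-7 (1.35) with his-8 (1.19) or his-35 (0.06) with his-41 (-0.08), to unlike ones, as in his-61 (0.86) with his-62 (1.64) or his-57 (0.94) with his-58 (1.62).

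**Figure D5:**
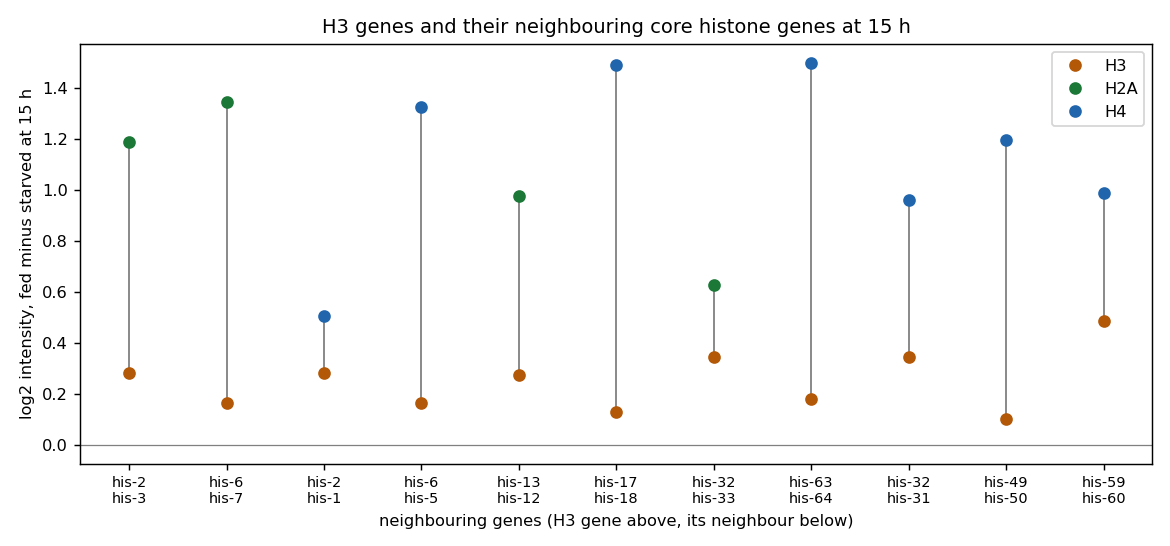
Fed minus starved difference of log2 intensity at 15 h for 11 pairs of neighbouring genes, each an H3 gene (orange) and its H2A (green) or H4 (blue) neighbour, joined by a line. The H3 gene has the lower difference in 11 of 11 pairs.

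Other genes that make, carry and mark histones were covered by lists of fixed content. Of 13 genes for histone message processing, chaperones and nucleosome assembly, 12 had a probe set, and 0 passed over the 7 times in limma's fit (median 0.14). Cdl-1, which encodes the stem-loop binding protein, had a difference of 0.00 ± 0.22 (SE; limma adjusted p = 1.0), and unc-85, a homologue of the chaperone ASF1, one of 0.76 ± 0.30 (limma adjusted p = 0.098). Of 22 measured histone modifiers 3 were higher and 0 lower (median 0.07), which is about the share of all probe sets called higher (13.5%). The 2 highest of these were jmjd-3.1, a histone demethylase, at 0.39 ± 0.09 (limma adjusted p = 0.020), and hat-1, an acetyltransferase, at 1.05 ± 0.32 (limma adjusted p = 0.045), which was detected in 0 conditions. Among 11 measured variants and linkers outside the rule, 1 was higher (hil-5, 1.30) and 1 lower (hil-1, -4.30), both linker histone genes. The H2A.Z gene htz-1 had 0.44 ± 0.17, the centromeric H3 gene hcp-3 0.33 ± 0.12 and its paralogue cpar-1 0.13 ± 0.15 (SE), and these 3 did not pass (limma adjusted p = 0.096, 0.075 and 0.56).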

How the data were processed

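The authors deposited tables of condition means; the labels name Affymetrix arrays, and the normalization is not given in the sources used here. Per the file headers, the deposited intensity values are means of 3 arrays with an error each. The deposited detection score is a p-value of detection, per the file headers. The deposited p-values for pairs of conditions and for 1- and 2-factor analyses of variance were taken as given and adjusted here by Benjamini-Hochberg over the worm probe sets with a value (22548 for pairs, 22040 to 22268 for the analyses of variance), with 77 control probe sets left out.

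Log2 means were fitted with limma 3.58.1 (R 4.3.3; lmFit, eBayes) over 14 conditions, food plus time, and separately with a slope of the food difference on log2 of hours plus 1. Each condition is 1 sample, so these tests use the spread across times. The test behind the deposited p-values for pairs is not given in the sources used here. At most they measure the spread between arrays, which no label ties to separate cultures. Pairs were also tested from the deposited errors with 4 degrees of freedom. In these tests the threshold was an adjusted p of 0.05. Code was tested on simulated data. Python 3.11.15, pandas 2.3.3, scipy 1.17.1 and matplotlib 3.10.9 were used.

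Histone types came from the deposited gene descriptions, except that of his-74, which is general knowledge. Named are, per type, the member of highest mean and those of highest and lowest food difference, the genes his-35, his-38 and his-69 to his-74 where measured, and in each list the 2 highest and lowest called genes with cdl-1, htz-1, hcp-3, cpar-1, unc-85, pcn-1 and rnr-1. Members and lists were chosen with earlier results of these data known. Alternatives were the time factor, quantile normalization, a detection filter, a pseudocount of 20, an intensity trend, all probe sets of a gene, time on hours, and each time left out. Listed genes hil-8, chaf-2, mes-6 and evl-18 were not matched, and sequences are not reported.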

Additional observations from a re-analysis of the deposited data

Results flagged for a closer look

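In the authors' deposited table the food by time term passed after adjustment for 37 of 46 members, beside 54.7% of the 22040 worm probe sets with a value. For these 37 the food difference thus changed with time, between fed and starved arrays that shared no hybridisation day. The size of that change is given here as the highest minus the lowest of the 7 log2 food differences. It was 1.89 for his-74, 1.32 for his-29, 1.13 for his-72, 1.05 for his-38 and 1.05 for his-54, which was not detected. It was 0.96 for his-71, 0.81 for his-41, 0.76 for his-60, 0.74 for his-37, 0.69 for his-35 and 0.49 for his-68. For his-35, his-41 and his-72 the difference turned from above 0 at 3 to 12 h to below 0 at 24 h.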

How the results depend on the processing

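Over the 7 times the count of members higher with food moved from 19 to 8 with no time factor (10 of 47 members called, beside 28% of all probe sets), to 32 with the nutrition term of the authors' 2-factor analysis of variance (5 lower in place of 2; that term passed for 68.9% of all probe sets with a value, and 34.6% passed and were higher), and to 6 among the 24 members whose probe set has 1 gene. Both of these last settings were chosen after seeing the data. Of the 24 members, 10 are H3 genes, a type in which no gene was called higher in the main fit. Under quantile normalization, the detection filter, the pseudocount, the intensity trend, all probe sets of a gene and each time left out, 13 to 20 members were higher and 2 or 3 lower, the fewest without 12 h. With time on hours 1 member, his-35, passed the slope test, where 0 did on log2 hours. With the deposited errors in place of the authors' p, called members moved from 1 to 0 at 3 h and 1 to 0 at 6 h. They moved from 3 to 1 at 12 h, 3 to 2 at 15 h (his-62 in both) and 7 to 3 at 24 h. Of the 3 at 24 h, all lower with food, only his-71 was among the 7. The count moved from 1 to 0 for refed against starved 15 h, and from 1 to 0 for hatching without food.

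Changes of sign were looked up only for the genes named by the rule above, and not for the other members. Among those named genes, signs turned only for differences near 0 and not past the threshold. For cdl-1 the 7-time difference was -0.029 under quantile normalization and -0.041, -0.070, -0.11 and -0.074 without 0, 1, 3 and 6 h. His-38 had -0.019 under quantile normalization and -0.086 without 15 h. His-72 had -0.0018 with all its probe sets and -0.025 without 12 h, his-54 -0.016 without 15 h and -0.0034 without 24 h, cpar-1 -0.0028 without 1 h and rnr-1 -0.021 without 6 h. Slopes turned for his-60 (-0.0021 on hours, -0.018 without 15 h), his-68 (0.0017 without 24 h) and his-72 (0.043 without 24 h). The cause was not tested. Hat-1 and jmjd-3.1 lost their calls under 6 and 2 of the alternatives. The 7-time fit compares fed and starved larvae within each time, and the fit with no time factor drops that pairing. No paired analysis was possible because, at the level of replicates, each condition is 1 deposited mean of its arrays. Signal over background limits his-54, his-67, his-69 and his-70, which were not detected.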
